A study of Mus musculus with 8 samples.

Results

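The class I odorant receptor (OR) cluster of mouse chromosome 7 was followed in olfactory mucosa of newborn mice in which the transcription factor gene Emx2 had been deleted in olfactory sensory neurons (OSNs). Its members were chosen by symbol, as the table rows that carry 1 gene symbol made of Olfr and a number from 543 to 693. This gave 110 rows for 109 genes, out of 23410 rows with a gene symbol and 1035 OR rows, and Olfr617 stands in 2 rows. Each row is a transcript cluster, which combines the array's probes for a gene into a value on a log2 scale.

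The knockout group held 4 samples, all 123Cre:Emx2(fl/fl), with a Cre transgene and 2 floxed Emx2 alleles. The control group held 4 littermate samples in which at most 1 allele could be deleted, 2 of them 123Cre:Emx2(fl/+), which carry Cre and a floxed allele, and 2 of them Emx2(fl/fl), which carry 2 floxed alleles and no Cre. All 8 samples came from postnatal day 1 and a mixed 129 x C57BL/6J background, and all carried at least 1 floxed allele, so none was wild type. In 123Cre mice recombination starts in immature OSNs and does not reach every OSN, and the mucosa also holds cells that do not express this Cre. Both sexes were used, and each litter gave mutants and controls, but the labels give neither litter nor sex for a sample. The p-values therefore measure the spread between these samples only, and in whole mucosa fewer cells that express a receptor and less receptor mRNA in each cell cannot be told apart.

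ORs are G-protein-coupled receptors, and a mature OSN expresses the gene of a single OR from a single allele. Class I ORs resemble the ORs of fishes, and in mouse most of their genes lie in a single cluster on chromosome 7. Most OSNs that use them sit in the dorsal part of the olfactory epithelium and send their axons to the dorsal olfactory bulb. The choice of class I genes depends on a distant enhancer within the cluster, the J element, and is held in check by the transcription factor Bcl11b. Many OR promoters hold sites for homeodomain factors, such as Lhx2 and Emx2, and for O/E (Ebf) factors. The question asked of these samples was whether loss of Emx2 in OSNs alters the amounts of OR mRNAs.

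The class label held for nearly all rows. In the reference gene table all 109 genes lie on chromosome 7, and by the MOR family names among their synonyms 107 rows carry class I families only (42 or lower). Olfr652 (MOR318) and Olfr693 (MOR283) carry class II families only, and Olfr605 carries a name of each class. Leaving out these 3 rows moved the median difference from control only in the third decimal. A further 8 rows carry several symbols that are all members, and these were kept out because signal could not be given to a single gene.

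Promoter windows from RefSeq (GRCm38.p6), 250 bases before to 50 bases after the first base of the gene model, were at hand for 93 of the 109 genes. In 69 of the 93 the gene model begins at the start codon, so those windows lie beside the coding sequence and the transcription start may lie elsewhere. Of the sequences, 4 are shown because the values below turn on these genes. Olfr691 had the lowest p of the cluster and lies at chr7:105337665-105337964 (minus strand), Olfr692 is its neighbour at chr7:105368078-105368377 (plus strand), and Olfr550, at chr7:102578219-102578518 (plus strand), had the lowest p among the first 22 rows in gene order. Olfr603, at chr7:103383951-103384250 (minus strand), stood higher in the knockout. Capitals mark matches to the homeodomain letters TAATTA, matches to the related homeodomain letters TAATGA on either strand, and matches to the O/E-like letters CCCNNGGG.
Olfr691: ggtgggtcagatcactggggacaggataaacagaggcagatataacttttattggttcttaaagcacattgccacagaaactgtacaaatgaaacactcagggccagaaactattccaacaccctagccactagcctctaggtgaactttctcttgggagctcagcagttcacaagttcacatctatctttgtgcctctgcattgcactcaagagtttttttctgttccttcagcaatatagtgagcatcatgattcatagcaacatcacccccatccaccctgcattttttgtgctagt
Olfr692: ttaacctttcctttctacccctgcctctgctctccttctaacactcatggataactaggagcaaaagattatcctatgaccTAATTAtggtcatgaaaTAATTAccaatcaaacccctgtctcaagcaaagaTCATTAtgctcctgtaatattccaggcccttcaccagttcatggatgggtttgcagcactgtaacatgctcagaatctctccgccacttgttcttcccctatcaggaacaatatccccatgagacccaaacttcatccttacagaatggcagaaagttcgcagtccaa
Olfr550: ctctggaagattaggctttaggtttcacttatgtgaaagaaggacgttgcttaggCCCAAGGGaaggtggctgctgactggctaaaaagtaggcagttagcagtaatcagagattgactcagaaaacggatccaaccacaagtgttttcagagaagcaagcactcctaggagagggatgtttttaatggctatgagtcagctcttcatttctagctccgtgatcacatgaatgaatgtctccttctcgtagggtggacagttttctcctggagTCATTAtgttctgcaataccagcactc
Olfr603: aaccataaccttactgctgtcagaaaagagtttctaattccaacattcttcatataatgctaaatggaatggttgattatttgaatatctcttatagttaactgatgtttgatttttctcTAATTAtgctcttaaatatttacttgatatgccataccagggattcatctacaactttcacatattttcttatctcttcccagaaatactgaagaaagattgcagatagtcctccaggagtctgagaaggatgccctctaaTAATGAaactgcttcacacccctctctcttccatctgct
Olfr691 held no match. Olfr692 held 2 TAATTA matches, which start at -169 and -152 counted from the first base of the gene model as 0, and a TAATGA match on the other strand at -118. Olfr550 held CCCNNGGG at -195 and a reverse TAATGA at 23, and Olfr603 held TAATTA at -130 and TAATGA at 11.

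Over the cluster, TAATTA was found in 13 of 93 windows (14.0%), against 19.1% of 855 windows of other ORs and 5.29% of all 32851 promoter windows. TAATGA, searched on both strands, was found in 27 windows (29.0%), against 28.8% of other ORs and 9.78% of all windows. CCCNNGGG was found in 3 windows (3.23%), against 3.04% of other ORs and 13.7% of all windows. TAATTA and CCCNNGGG read the same on both strands, and in 1 window, that of Olfr609, matches of both homeodomain kinds overlapped. The median difference from control was -0.36 over the 34 genes with either homeodomain match and -0.30 over the 59 genes with neither, and without knockout replicate 2, an array that stood apart, -0.27 and -0.20. Of the 8 rows with the lowest p-values described below, 2 belong to genes with a homeodomain match and 6 to genes without. A match describes the letters of the window only.

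The arrays themselves were checked first. Emx2 mRNA ranged over 9.80 to 10.01 in the knockout and 10.72 to 11.00 in the control, a difference of -0.94 (SE 0.082, adjusted p = 0.00140 by limma). The other homeodomain factor, Lhx2, differed by -0.004 (95% interval -0.16 to 0.15). Of all 23410 rows, 84 (0.359%) passed an adjusted p of 0.05, and 2 of these are OR rows. The marker of mature OSNs, Omp, was at 12.80 to 12.94 in knockouts and at 12.86 to 13.07 in controls. Knockout replicate 2 stood apart, with a mean correlation with the other arrays of 0.978, against 0.987 to 0.990 for the rest. Values without it stand beside the cluster, its blocks, and the named members and gene groups whose stated difference it moved by over 1.5 times. They are not given for single genes of the cell type and OR expression lists.

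Class I cluster mRNAs were mostly lower in the knockout, by small amounts. Of 110 rows, 103 (93.6%) were below the control mean and 7 above it, against 74.7% of 904 class II rows and 48.4% of all rows below. The median difference was -0.33, against -0.17 over the class II rows and 0.0041 over all rows. The middle of the distribution ran from -0.46 to -0.17 (interquartile range) and the extremes from -0.81 for Olfr597 to 0.27 for Olfr556. The median standard error of a row was 0.168. Values of members spanned 4.24 to 10.01 on the log2 scale.

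No member passed the adjusted threshold, and the rows with low unadjusted p-values all lay on the lower side. By limma 0 of 110 rows had an adjusted p under 0.05, the lowest being 0.284. At an unadjusted p under 0.01, 8 rows were lower (7.27% of the cluster), against 1.3% of all rows and 3.96% of OR rows, and 0 were higher, against 0.436% of all rows and 0.773% of OR rows. With the threshold at 0.05 there were 33 lower rows (30%), against 3.06% of all rows and 13.5% of OR rows, and 0 higher rows, against 3.04% of all rows and 2.32% of OR rows. The methods' t-test gave 0 rows after adjustment. At an unadjusted p under 0.05 it gave 20 lower rows (18.2%), against 3.55% of all rows and 8.5% of OR rows, and at 0.01 it gave 0, against 1.26% of both. The count of 8 depended on single samples. Leaving out knockout replicate 1 gave 1 such row (0.909%, against 0.906% of all rows and 1.84% of OR rows). Leaving out control replicate 3 gave 1 (against 0.876% and 1.55%), and leaving out control replicate 1 gave 2 (1.82%, against 1.04% and 2.8%). Without knockout replicate 3 there were 16 (14.5%, against 1.17% of all rows and 4.35% of OR rows). With knockout replicate 2 left out, 6 rows (5.45%) were lower at this threshold, against 1.78% of all rows and 2.9% of the ORs. In 10 rows all knockouts lay below all controls (9.09%), against 2.54% of all rows and 5.31% of OR rows, and in 0 rows did all knockouts lie above all controls (1.98% of all rows and 1.35% of OR rows). These 10 were Olfr550, Olfr622, Olfr640, Olfr646, Olfr656, Olfr666, Olfr685, Olfr690, Olfr691 and Olfr692, of which Olfr646, Olfr656 and Olfr666 were named after their values were seen.

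Members near the far end of the gene order held some of the lowest p-values. Olfr691, of family MOR31, had log2 values of 7.49, 7.46, 7.81 and 7.72 in knockouts, against 8.66, 8.19, 8.70 and 7.94 in controls. Every knockout was below every control, with control replicate 4 nearest. The difference was -0.75 (SE 0.178, 95% interval -1.16 to -0.35), which puts the knockout at 59.4% of the control level, with an adjusted p of 0.284 by limma. Olfr690, its neighbour in the order and also of MOR31, had values of 7.36, 7.06, 7.62 and 7.55 in knockouts, against 8.29, 7.73, 8.58 and 7.76 in controls. Its groups did not overlap either, although control replicates 2 and 4 stood little above knockout replicates 3 and 4, and it differed by -0.69. Olfr692, a receptor that in mice has been found in vomeronasal neurons responding to pup odours, had values of 8.09, 8.13, 8.69 and 8.28 in knockouts, against 8.87, 8.76, 9.22 and 8.72 in controls. Knockout replicate 3 came close to control replicate 4, and the difference was -0.59 (SE 0.156, 95% interval -0.95 to -0.24). Olfr685, of family MOR37, had values of 7.55, 7.30, 7.81 and 7.89 in knockouts, against 8.42, 8.01, 8.37 and 7.91 in controls. Knockout replicate 4 and control replicate 4 nearly met, and the row differed by -0.54. Olfr693, the last member, is the MOR283 row and stood at 0.16, with an SE of 0.276.

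At the other end of the cluster Olfr544 and Olfr550 had low p-values, while Olfr545 and Olfr558 did not. Olfr544 (MOR42-3), which responds to the dicarboxylic acid azelaic acid, had values of 7.48, 8.04, 7.52 and 7.89 in knockouts, against 8.57, 8.48, 8.40 and 7.96 in controls. The groups overlapped, since knockout replicate 2 stood above control replicate 4, and the difference was -0.62 (SE 0.168, 95% interval -1.003 to -0.24), which puts the knockout at 65.0% of the control level. Without knockout replicate 2 it was -0.72. Olfr545 (MOR42-1) is a relative that also responds to dicarboxylic acids, and the study had an in situ hybridization probe for it, used in older mice. It had values of 8.14, 8.34, 8.15 and 8.12 in knockouts, against 8.47, 8.39, 8.41 and 8.18 in controls. Here the knockout replicates other than 2 lay within a narrow range below the controls, and the difference was -0.17 (SE 0.086, 95% interval -0.37 to 0.02). With arrays centred on mature OSN genes, Olfr545 differed by -0.02. Olfr550 (MOR16-1) had values of 9.08, 9.53, 9.22 and 9.33 in knockouts, against 9.65, 9.87, 9.97 and 9.58 in controls. All its knockouts lay below all controls, by little for knockout replicate 2, and it differed by -0.48 (SE 0.123, 95% interval -0.76 to -0.20). It was the member that passed when arrays were weighted by quality, with an adjusted p of 0.0489 by limma. That fit gave knockout replicate 2 a weight of 0.17, against 0.66 to 2.84 for the other arrays. In it 2.58% of all rows and 7.73% of OR rows were lower at an unadjusted p under 0.01. The share of all rows that passed after adjustment was not counted there. With knockout replicate 2 left out, Olfr550 had an adjusted p of 0.113 by limma. Olfr558 (MOR18-1), the mouse counterpart of the human short-chain fatty acid receptor OR51E1, had values of 7.75, 7.79, 8.24 and 8.25 in knockouts, against 8.13, 7.89, 8.56 and 8.17 in controls. Its groups overlapped widely and the difference of -0.18 had a 95% interval of -0.57 to 0.21, and was -0.11 without knockout replicate 2.

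**Figure D1:**
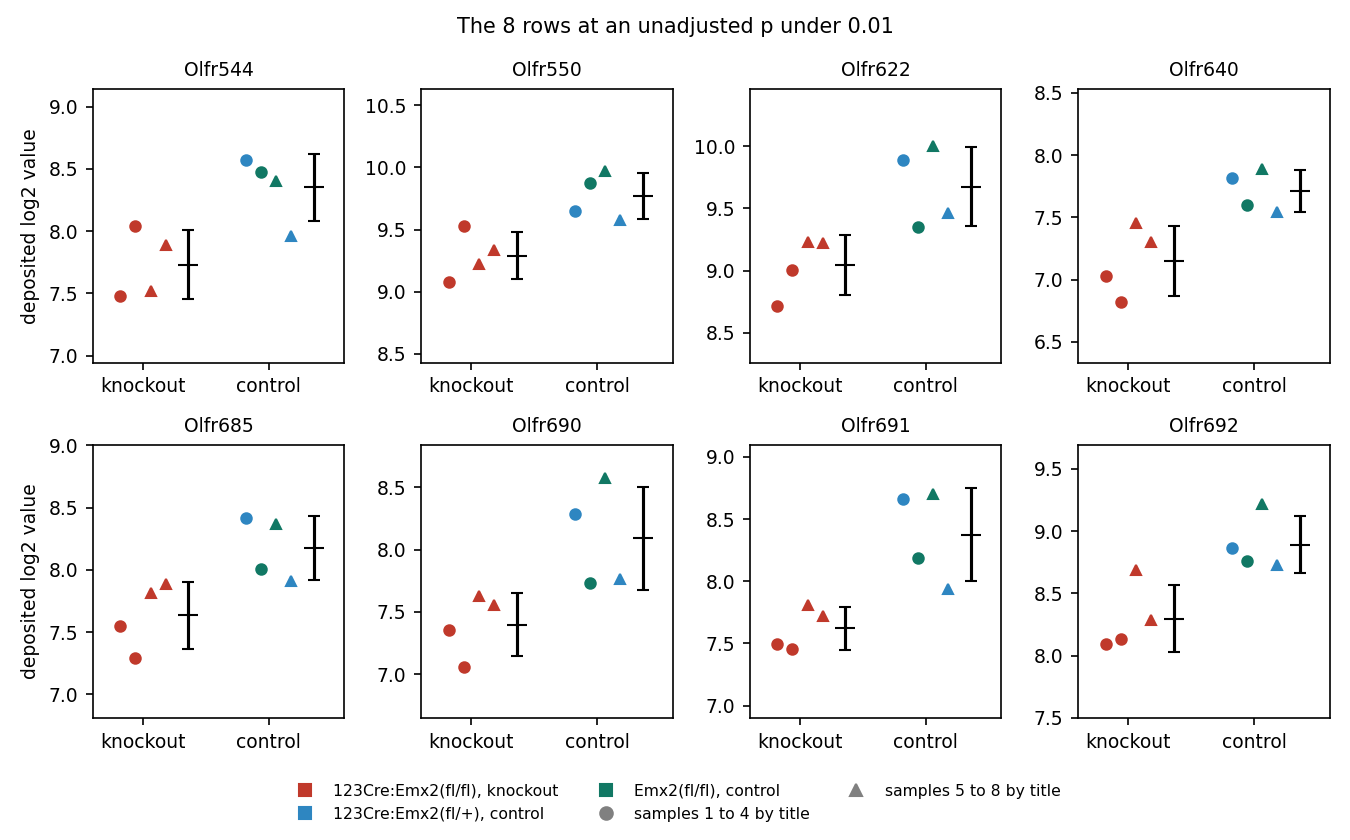
Deposited log2 values (vertical axes, each of equal span) of the 8 class I cluster rows at an unadjusted p under 0.01, 1 point per sample for knockouts (left) and controls (right), with group mean and SD beside the points; colour gives the genotype and shape the sample number in the titles. Groups do not overlap in 7 of the panels, and in that of Olfr544 knockout replicate 2, at 8.04, lies above control replicate 4, at 7.96.

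In the middle of the cluster, Olfr640 and Olfr622 had low p-values. Olfr640 (MOR13-4) had values of 7.03, 6.82, 7.46 and 7.30 in knockouts, against 7.81, 7.60, 7.89 and 7.54 in controls. The highest knockout, replicate 3, was below the lowest control, replicate 4, and the difference was -0.56 (SE 0.146, 95% interval -0.89 to -0.23). Olfr622 (MOR26-1) had values of 8.71, 9.003, 9.23 and 9.22 in knockouts, against 9.89, 9.35, 10.002 and 9.46 in controls. Its groups did not overlap, and it differed by -0.63 (SE 0.174, 95% interval -1.03 to -0.24), with the knockout at 64.5% of the control level. Among rows at an unadjusted p under 0.05, the largest differences were those of Olfr597 at -0.81, Olfr691, Olfr670 at -0.72, Olfr690, Olfr655 at -0.65 and Olfr622. Olfr655 (MOR38-1) had values of 7.80, 7.97, 8.64 and 8.43 in knockouts, against 9.19, 8.48, 9.16 and 8.60 in controls, and knockout replicate 3 stood above control replicates 2 and 4. Olfr597 (MOR23-2) had values of 6.97, 6.44, 7.25 and 7.59 in knockouts, against 8.08, 7.51, 8.37 and 7.54 in controls. Knockout replicate 4 stood above control replicates 2 and 4, and knockout replicate 2 was the lowest of all samples. Without that replicate Olfr597 differed by -0.61 and Olfr670 by -0.53. Olfr670 (MOR32-8) had values of 7.13, 6.97, 8.19 and 7.87 in knockouts, against 8.37, 7.93, 8.47 and 8.28 in controls. Its knockout replicates 1 and 2 were the lowest of the 8 samples, and knockout replicate 3 lay among the controls.

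Leaving out knockout replicate 2 changed which members had low p-values. The 6 rows lower at an unadjusted p under 0.01 were then Olfr550 (-0.56), Olfr544, Olfr691 (-0.70), Olfr640 (-0.45), Olfr578 (-0.66) and Olfr543 (-0.43), of which 4 are also among the 8 above. Olfr578 and Olfr543 were named after their values were seen, and with all samples they differed by -0.56 and -0.30. The cluster then had 94 rows lower, against 502 of 904 class II rows. Its median was -0.22, against -0.03 over class II rows and -0.0038 over all rows.

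Olfr615 (MOR19-2) was also probed in situ in the study, shown there for older mice with Lhx2 deleted. It had values of 7.36, 7.34, 8.34 and 8.14 in knockouts, against 8.62, 7.61, 8.26 and 8.18 in controls. Knockout replicates 1 and 2 were low and replicates 3 and 4 lay among the controls, and the difference of -0.37 had a 95% interval of -1.01 to 0.27. Without knockout replicate 2 it was -0.22. Olfr552 (MOR28-1) had values of 6.90, 7.07, 8.16 and 6.99 in knockouts, against 8.12, 7.42, 7.47 and 7.24 in controls. Knockout replicate 3 stood above every control and the other knockouts below every control, with a difference of -0.28 (SE 0.295). Both rows of Olfr617 were listed, with values of 6.12, 6.05, 6.47 and 6.63 in knockouts, against 6.67, 6.32, 6.56 and 6.60 in controls in the first row. The second row had 5.61, 5.11, 6.06 and 5.71 in knockouts, against 5.89, 5.34, 5.84 and 5.92 in controls. The rows differed by -0.22 and -0.12, both with 95% intervals that include 0, and were -0.13 and 0.05 without knockout replicate 2. The second also turned to 0.035 with arrays centred on mature OSN genes.

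Few members stood higher in the knockout. Olfr556 (MOR41-1) had values of 7.52, 7.59, 7.99 and 8.18 in knockouts, against 7.54, 7.24, 7.61 and 7.81 in controls, with knockout replicates 3 and 4 above every control and a difference of 0.27 (SE 0.172, 95% interval -0.12 to 0.66). Olfr571 (MOR21-1) had values of 9.02, 8.60, 9.31 and 9.57 in knockouts, against 8.88, 8.78, 8.99 and 8.84 in controls. Its controls were close together (SD 0.090) while knockout replicate 2 lay below them all and the other knockouts above. Without that replicate Olfr571 differed by 0.43 with an unadjusted limma p of 0.00881, while 1.36% of all rows and 4.25% of ORs stood higher with a p below 0.01 in that fit. Olfr603 had values of 6.69, 6.15, 6.65 and 6.82 in knockouts, against 6.79, 6.24, 6.55 and 5.996 in controls. The groups overlapped, and the difference was 0.18, or 0.33 without knockout replicate 2. A separate row that carries the symbols of both Olfr596 and Olfr603 differed by -0.36, the opposite sign. Olfr693 (0.16), Olfr686 (0.03), Olfr564 (0.03) and Olfr678 (0.0022) were the remaining rows above 0, and were named after their values were seen. Without knockout replicate 2 they stood at 0.35, 0.14, 0.01 and 0.05.

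The 8 rows with several member symbols, left out above, all stood lower in the knockout, with differences of -0.66 to -0.30. With them, 111 of 118 rows were lower. ORs of neighbouring genes can be near-identical, so signal of a row with a single symbol can also come from a close relative, and a difference of a single row is uncertain in that respect.

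**Figure D2:**
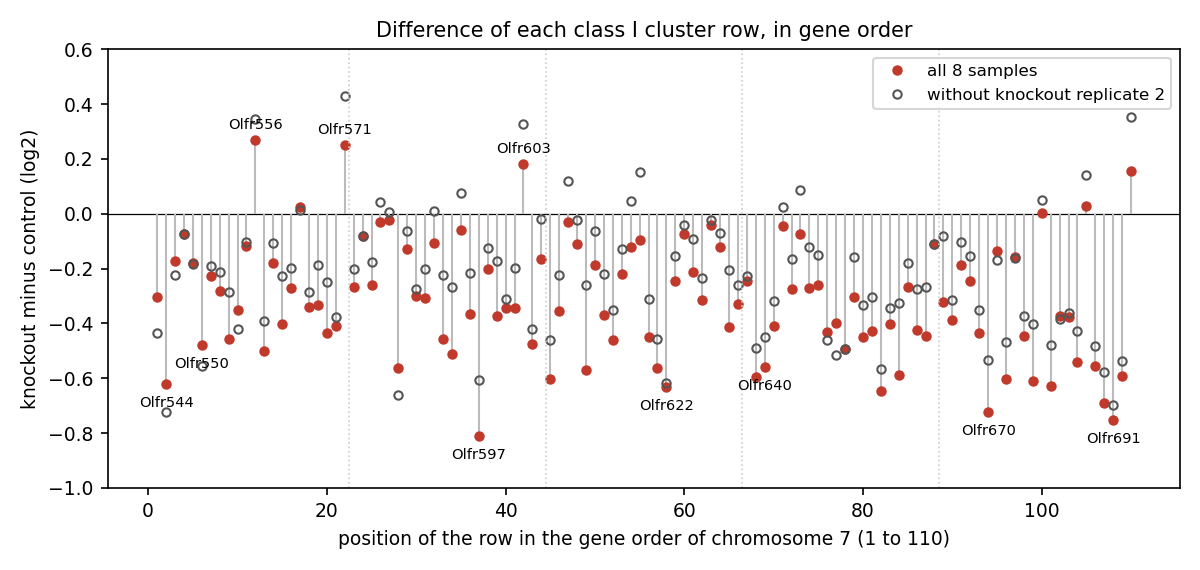
Knockout minus control difference (vertical axis, log2) of each of the 110 class I cluster rows, set in the gene order of chromosome 7 (horizontal axis, position 1 to 110); filled points use all 8 samples, open points leave out knockout replicate 2, and dotted lines part blocks of 22 rows. Most points lie below 0, with 103 filled and 94 open points lower.

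Lower values were spread along the whole cluster. In consecutive blocks of 22 rows the median difference was -0.29, -0.28, -0.28, -0.41 and -0.41, and without knockout replicate 2 it was -0.22, -0.19, -0.18, -0.29 and -0.37. In these blocks 5, 4, 4, 10 and 10 of 22 rows were lower at an unadjusted p under 0.05. The share lower at this threshold was 3.06% over all rows and 13.5% over OR rows. Of the 41 class I families represented, 36 had all their rows lower, though many families hold 1 row only. The largest, MOR31, had 11 rows, all lower, with a median of -0.40 and a range from -0.75 to -0.07. MOR40, with 7 rows, had a median of -0.45, and MOR34, also with 7 rows, -0.32, or -0.18 without knockout replicate 2. MOR32, with 10 rows, had 8 lower and a median of -0.26, and spanned -0.72 for Olfr670 to 0.18 for Olfr603. The 3 rows of MOR42, Olfr543 to Olfr545, had a median of -0.30.

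Genes of other kinds lie between the member genes, of which the last, Olfr693, carries a class II family only. The span that holds the members contains 255 reference genes, 96 of them not ORs, and 38 of these were measured in 39 rows. Their median difference was 0.04 (0.01 without knockout replicate 2), with 10 rows lower (18 without it), 0 at an unadjusted p under 0.01 and 1 under 0.05. That row was Cnga4, a subunit of the channel that opens in the olfactory response, with 10.52, 10.65, 10.21 and 10.51 in knockouts, against 10.33, 10.18, 10.22 and 10.08 in controls. It stood higher by 0.27 (SE 0.104, adjusted p = 0.771 by limma). Cnga4 lies between Olfr692 and Olfr693, beyond the last class I row, as do the other measured genes from Fam160a2 to Gm1966. The beta-globin genes Hbb-bh2, Hbb-bh1 and Hbb-y differed by 0.02, 0.16 and -0.03, and the ubiquilin gene Ubqlnl by 0.11. Without knockout replicate 2, Hbb-y was at -0.11 and Ubqlnl at 0.19. OR genes outside the number range gave further values for reference. The range is made of symbol numbers, not positions, so such genes can lie inside the span, which holds 159 reference ORs. A set of 11 other class I rows, among them Olfr64 to Olfr69, had a median of -0.37 with 9 lower, and 39 class II rows whose symbols carry the adjoining numbers had a median of -0.10 with 24 lower. Without knockout replicate 2 these medians were -0.21 and -0.01, with 9 and 21 rows lower. The mean differences were -0.31 and -0.06 with all samples, and -0.17 and 0.0098 without that replicate.

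Averaged over its 110 rows, the cluster had a mean of 7.22, 7.14, 7.67 and 7.61 in knockouts (7.41 ± 0.27, SD, n = 4), against 7.90, 7.45, 7.90 and 7.66 in controls (7.73 ± 0.22, SD, n = 4). Knockout replicates 1 and 2 were low, and replicates 3 and 4 lay above control replicate 2. The difference of the means was -0.32, and -0.23 without knockout replicate 2. Over the 904 class II rows the means were 7.29, 6.95, 7.55 and 7.68 in knockouts, against 7.504, 7.28, 7.66 and 7.68 in controls, a difference of -0.16. Without knockout replicate 2 the class II difference was -0.02. The class I mean minus the class II mean was -0.07, 0.19, 0.12 and -0.07 in knockouts (0.042 ± 0.133, SD, n = 4), against 0.40, 0.17, 0.24 and -0.02 in controls (0.196 ± 0.173, SD, n = 4). The difference of -0.15 is about the spread of the samples, the groups overlapped, and leaving out knockout replicate 2 gave -0.20, control replicate 1 -0.09. No test was made of these means, since the rows were chosen with results of these samples known.

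**Figure D3:**
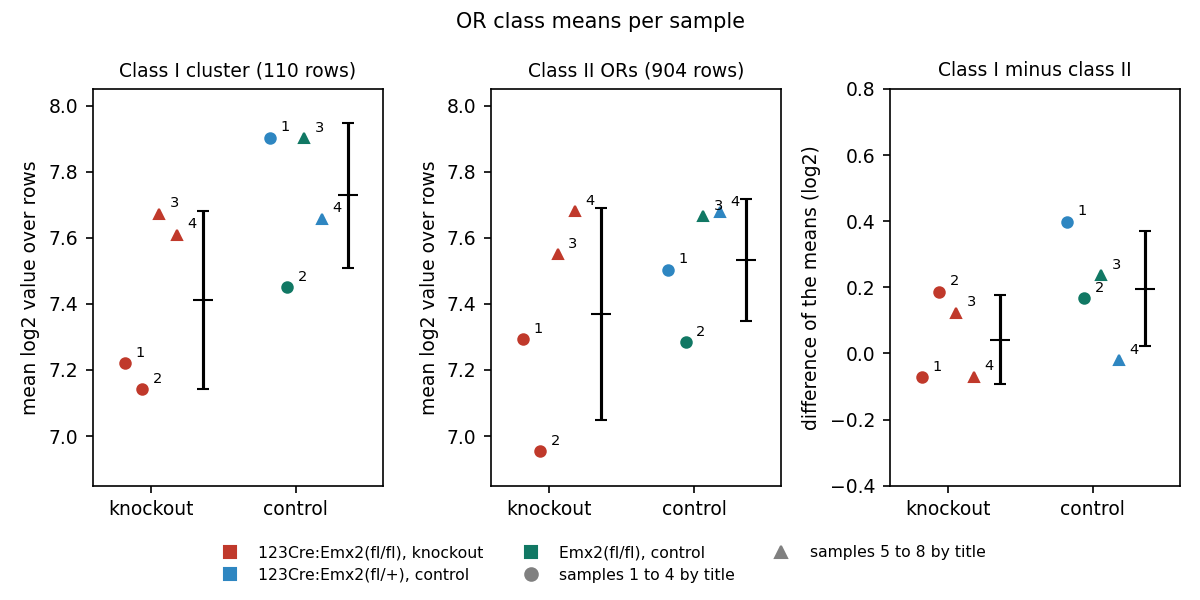
Mean log2 value per sample over the class I cluster (left, vertical axis in log2), over class II ORs (centre) and their difference (right), for knockouts and controls, with group mean and SD beside the points; colour gives the genotype, shape the sample number in the titles, and the digit the replicate. Class I means run from 7.14 to 7.67 in knockouts and from 7.45 to 7.90 in controls, and the groups overlap in each panel.

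The comparison was also made within the samples of low and of high number in their titles. The labels do not say what the numbers stand for. Replicates 1 and 2 of each group are samples 1 to 4, and replicates 3 and 4 are samples 5 to 8, so each side holds 2 knockouts and 2 controls, 1 of each control genotype. Among samples 1 to 4 the cluster mean differed by -0.49, with 104 rows lower, and among samples 5 to 8 by -0.14, with 90 rows lower. The class II mean differed by -0.27 among samples 1 to 4 and by -0.06 among samples 5 to 8. In 87 of the 110 cluster rows both sides were lower. The test of the difference between the sides, chosen after the data were seen, called 0 rows after adjustment and 0 at an unadjusted p under 0.01 (background 0.41% of all rows and 1.35% of OR rows), although 98 of 110 differences were higher in samples 5 to 8, and the median over all members of the change between sides was 0.36. Knockouts 1 and 2 held the lowest of the 8 values in 34 and 63 rows, and control replicates 1 and 3 the highest in 49 and 45 rows. Samples 5 to 8 were higher than samples 1 to 4 in 98 rows, 20 of them (18.2%) at an unadjusted p under 0.01, against 7.09% of all rows and 35.4% of OR rows. With the side as a block term, 16 rows (14.5%) were lower at an unadjusted p under 0.01, against 1.91% of all rows and 11.5% of OR rows, and 0 passed after adjustment.

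**Figure D4:**
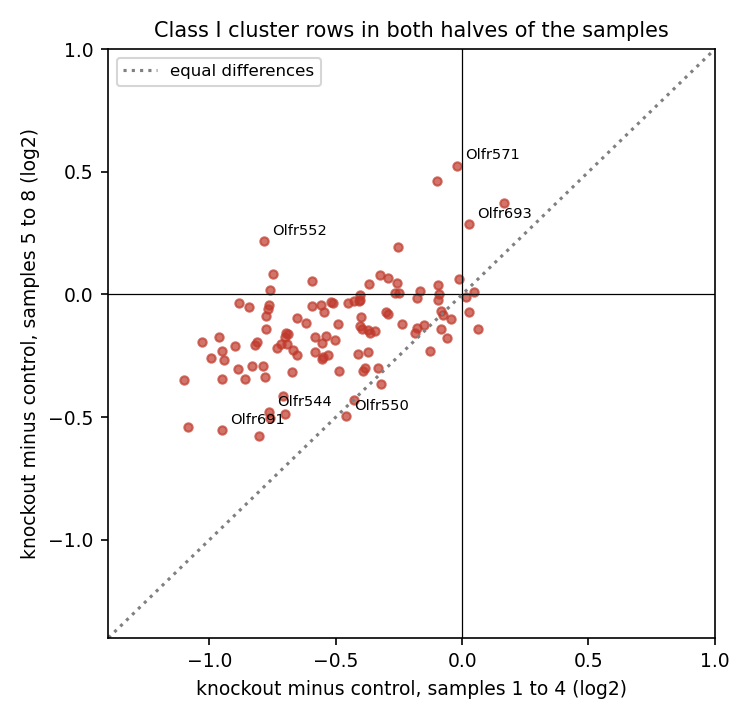
Knockout minus control difference of each class I cluster row among samples 1 to 4 (horizontal axis, log2) and among samples 5 to 8 (vertical axis, log2), with the line of equal differences dotted. Of the 110 points 87 lie in the lower left part, below 0 on both axes, and 98 lie above the dotted line.

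Olfr550 differed by -0.46 among samples 1 to 4 and by -0.50 among samples 5 to 8, and Olfr690 by -0.80 and -0.58. Olfr691 (-0.95 and -0.55), Olfr692 (-0.70 and -0.49), Olfr544 (-0.76 and -0.48) and Olfr622 (-0.76 and -0.50) were lower on both sides as well. So were Olfr640 (-0.78 and -0.34) and Olfr685 (-0.79 and -0.29), the remaining rows of the 8 with the lowest p-values. Olfr597 differed by -1.09 among samples 1 to 4 and by -0.54 among samples 5 to 8. Olfr670 (-1.099 and -0.35), Olfr655 (-0.95 and -0.35), Olfr545 (-0.19 and -0.16) and Olfr558 (-0.24 and -0.12) were also lower on both. Some members turned in sign. Olfr615 differed by -0.76 among samples 1 to 4 and by 0.02 among samples 5 to 8, and Olfr552 by -0.78 and 0.22. The same held for Olfr571 (-0.02 and 0.53) and Olfr603 (-0.10 and 0.46). The rows of Olfr617 gave -0.41 and -0.03 in the first and -0.25 and 0.0074 in the second. Olfr556 was higher on both sides (0.17 and 0.37).

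Both control genotypes gave lower values for the knockout. Against 123Cre:Emx2(fl/+), which has Cre and can lose an allele, 104 rows were lower with a median of -0.40, and against Emx2(fl/fl), without Cre, 95 rows were lower with a median of -0.26. These comparisons share the knockout samples. With 3 genotypes in the fit, 1 row was lower at an unadjusted p under 0.01 against 123Cre:Emx2(fl/+) (background 0.79% of all rows and 1.84% of OR rows), Olfr641 at -0.52, named after its values were seen. Against Emx2(fl/fl) there were 3 (background 1.05% of all rows and 2.42% of OR rows), Olfr550 at -0.63, Olfr691 at -0.83 and Olfr692 at -0.69, and 0 rows passed after adjustment in either comparison. Between the control genotypes, 83 of 110 rows were higher in 123Cre:Emx2(fl/+) than in Emx2(fl/fl), with 0 at an unadjusted p under 0.01 (background 0.278% of all rows and 0.0966% of OR rows).

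Genes that mark cell types or act in OR expression were read beside the cluster. Of 4 genes listed for dorsal OSNs, where class I ORs are mostly used, 3 were lower. The mean of the 4 was 11.26, 11.40, 11.64 and 11.54 in knockouts, against 11.75, 11.59, 11.78 and 11.67 in controls. The list's median difference was -0.21, or -0.14 without knockout replicate 2. Nqo1, an oxidoreductase that marks dorsal OSNs, had 10.52, 11.18, 11.00 and 10.88 in knockouts, against 11.59, 11.38, 11.58 and 11.32 in controls, with no overlap and a difference of -0.57 (adjusted p = 0.316 by limma). Acsm4 differed by -0.30, Robo2 by -0.12 and Nfia by 0.05. The mean of 5 genes listed for ventral OSNs, 2 of them lower, was 11.21 to 11.35 in knockouts and 11.16 to 11.31 in controls. Its difference was 0.06, or 0.09 without knockout replicate 2. Nfia was listed as dorsal, while its relatives Nfib (0.13) and Nfix (0.12) were listed as ventral. Sema3f, at 0.17 the highest difference of the ventral list, was listed there too. The places of Nfia and Sema3f in these lists are uncertain. Which OSNs express each listed gene was not tested, so the lists do not compare dorsal with ventral OSNs. Of 17 mature OSN genes 15 were lower, with list means of 11.54 to 11.69 in knockouts and 11.74 to 11.84 in controls and a median difference of -0.12. Of 15 immature OSN genes 14 were lower, with means of 10.63 to 10.81 in knockouts and 10.76 to 10.93 in controls and a median of -0.10, or -0.17 without knockout replicate 2. The part of these genes in the differences of the cluster was not tested, beyond centring each array on the mature OSN genes. This setting moved all rows upward, by 0.157 at their median. The cluster then had a median of -0.17 with 84 rows lower and 1 row, Olfr691, lower at an unadjusted p under 0.01 (0.909%, against 0.517% of all rows and 1.35% of OR rows), while class II rows had a median of -0.02.

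Of 20 genes of OR choice and expression, 17 were lower, with a median of -0.08, or -0.03 without knockout replicate 2. The 17 include Emx2 itself, and the list shares Adcy3, Gnal, Ric8b, Rtp1 and Rtp2 with the mature OSN genes. Emx2, the deleted gene, passed, and Rtp2, a chaperone that carries ORs to the cell membrane, differed by -0.40 (adjusted p = 0.128 by limma). Bcl11b differed by -0.07, Ldb1, the partner of Lhx2, by 0.04, and the O/E factor genes Ebf1 to Ebf4 by -0.11, -0.08, -0.13 and 0.0067. Vomeronasal receptor mRNAs were lower as well. By limma 24 of 119 Vmn1r rows and 11 of 56 Vmn2r rows had an adjusted p under 0.05, against 0.359% of all rows. The 119 Vmn1r rows averaged 5.07 to 5.27 in knockouts and 5.58 to 5.81 in controls, and the 56 Vmn2r rows 5.16 to 5.32 in knockouts and 5.65 to 5.91 in controls. The 5 vomeronasal neuron genes had means of 10.56 to 10.92 in knockouts and 10.75 to 10.92 in controls, with 4 lower. Their mean difference was -0.12, or -0.19 without knockout replicate 2. Of the other lists, 9 of 9 ciliated cell genes (means of 9.96 to 10.34 in knockouts and 9.89 to 10.05 in controls) and 7 of 7 skeletal muscle genes (7.37 to 7.55 in knockouts and 7.21 to 7.45 in controls) were higher. Olfactory bulb and brain genes were lower in 5 of 7 (7.85 to 8.04 in knockouts and 7.88 to 8.40 in controls). Markers of sustentacular cells (5 of 7 lower), basal and progenitor cells (3 of 6), erythroid cells (3 of 3) and macrophages (3 of 6) had median differences of -0.0046, 0.07, -0.22 and 0.0077, and without knockout replicate 2 of -0.01, 0.08, -0.33 and -0.03. Their part in the values of the cluster was not tested.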

How the data were processed

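Total RNA of olfactory mucosa from 8 samples was hybridised to Affymetrix Mouse Gene 1.0 ST arrays, 1 per sample. The authors deposited log2 values per transcript cluster, made with Affymetrix Expression Console per the submitters' processing notes. How that program corrected background and normalized is not given in the sources at hand. The study normalized to the average difference between groups of a much larger set of mRNAs specific to mature OSNs. That procedure was not repeated. As an alternative, each array was centred on the mean of 17 chosen mature OSN genes. Symbols came from the platform annotation, and positions, MOR names and promoter windows from RefSeq tables (GRCm38.p6). Positions are printed for the windows alone, since the array annotation names no build.

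All 23410 rows with a symbol were tested as knockout minus control with limma 3.58.1 in R 4.3.3 (lmFit and eBayes, two-sided, no covariate) with Benjamini-Hochberg adjustment over all of them. An unadjusted p under 0.01 is given as a description. Control genotypes were separated in a fit of 3 genotypes. Lists use 1 row per gene and are described by counts and medians. The procedure was tested on simulated data. Members, gene lists and tests were chosen with earlier results of these data known. Genes were named by a rule: the members probed in situ, those at an unadjusted p under 0.01, up to 6 per direction of largest difference at an unadjusted p under 0.05, the 3 highest and 3 lowest differences, members with known ligands, members in several rows, genes between members, and genes of the lists. The alternatives comprised quantile normalization, the methods' t-test, centring on mature OSN genes or on rows that are not ORs, a filter on the dimmest 30% of rows, a test of every row, a robust fit with a variance trend, array weights, the sample-number side as a block, either control genotype alone, rows with several member symbols, and each sample left out. The number of arrays limits the precision.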

Additional observations from a re-analysis of the deposited data

Results flagged for a closer look

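In 46 groups of 4 samples, 2 for each row tested, 3 held a sample far from the others, and chance alone flags about 1 group in 20. Olfr545 was at 8.34 in knockout replicate 2, against 8.12 to 8.15 in the other knockouts. Olfr552 was at 8.16 in knockout replicate 3, against 6.90 to 7.07 in the other knockouts, and without knockout replicate 2 the row differed by -0.21. The second row of Olfr617 was at 5.34 in control replicate 2, against 5.84 to 5.92 in the other controls.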

How the results depend on the processing

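The count of cluster rows lower at an unadjusted p under 0.01, 8 as reported, was 0 with the methods' t-test (OR rows 1.26%, all rows 1.26%). It was 14 with quantile normalization (12.7% of the cluster, OR rows 5.99%, all rows 1.32%). Centring arrays on mature OSN markers gave 1 (0.909%, OR rows 1.35%, all rows 0.517%). Array weights gave 26 (23.6%, OR rows 7.73%, all rows 2.58%). The sample-number side as a block gave 16 (14.5%, OR rows 11.5%, all rows 1.91%). The count was 0 with only 123Cre:Emx2(fl/+) controls (OR rows 1.16%, all rows 0.671%). It was 3 with only Emx2(fl/fl) controls (2.73%, OR rows 2.03%, all rows 0.889%). With 1 sample left out it ranged from 1 to 16. The count higher at that threshold, 0 as reported, was 1 with array weights (OR rows 4.25%, all rows 2.37%). It was 1 with the block and no knockout replicate 2 (OR rows 4.93%, all rows 1.93%), and 0 to 1 with 1 sample left out. The count at an adjusted p under 0.05 was 1 with array weights, Olfr550, and 0 under the other alternatives. The share of all rows that passed with array weights was not counted. The median difference kept its sign throughout, from -0.44 to -0.22 with 1 sample left out and -0.17 with mature OSN centring, and the cluster mean ran from -0.41 to -0.23 and its difference from class II from -0.23 to -0.09 with 1 sample left out. The second row of Olfr617 changed sign with mature OSN centring (0.035), with only Emx2(fl/fl) controls (0.037) and with the block and no knockout replicate 2 (0.0030), and ranged from -0.27 to 0.048 with 1 sample left out, the last without knockout replicate 2. The block without knockout replicate 2 and the restriction to MOR families of 42 or lower were chosen after seeing the data. In all these cases the cause was not tested. No paired analysis was possible because the labels give no replicate numbers shared between groups, and numbers in accession order only name samples. Of 110 rows, 84 were above the dimmest 30% of rows.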
